A study of Mus musculus with 18 samples.

Results

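Decorin and 9 other genes of the stromal extracellular matrix were followed in thymocyte RNA of ageing mice: Dcn, Lum, Bgn, Sparc, Mgp, Col1a1, Col1a2, Col3a1, Col4a1 and Fn1. Probes whose array gene name was one of these symbols numbered 6 and covered 4 of the genes. Another 6 probes were assigned through their accession and 6 through their description, which gave 18 probes for all 10 genes, out of 41174 non-control probes on the array. Assigned by description alone were Bgn A_52_P162486, Col3a1 A_52_P684242 and A_52_P8643, Col4a1 A_52_P518827, and Fn1 A_52_P11817 and A_52_P299974. Of the 18 probes, 14 passed the filter on low signal, with at least 1 for each gene.

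Thymocytes are immature T cells maturing in the thymus, and here they were isolated from C57BL/6 mice by dissociation, straining, washing and red cell lysis, steps that the labels describe as removing connective tissue, clumps, fat cells and erythrocytes. Each of 9 Agilent 2-colour arrays carried Cy3-labelled RNA from a mouse aged 6, 16 or 24 months (3 mice per age) and Cy5-labelled RNA from 1 month old mice. The design text calls the 1 month RNA a pool, whereas the labels number 9 mice of that age. It was treated as 1 control sample, so its own spread is left out of every comparison with 1 month, and because no array had swapped dyes, age and dye cannot be told apart there. The mice carried no stated genetic change or treatment. Values are log2 ratios of Cy3 to Cy5 processed signal, positive where the older mouse was higher. Differences between 2 of the older ages do not depend on the 1 month RNA if it was the same on every array.

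The extracellular matrix is the protein scaffold around cells. Fibrillar collagens (types I and III) form its fibres, type IV collagen forms the sheet of basement membranes, fibronectin links both to integrins on cells, and small leucine-rich proteoglycans such as decorin, lumican and biglycan sit on collagen fibres and set their spacing. In the thymus these proteins are made mainly by fibroblasts and other mesenchymal cells of the capsule, the septa and the perivascular spaces, and thymocytes are not known as a main source. In RNA from a mixed suspension, fewer cells of a type and less RNA per cell cannot be told apart.

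All 13 thymocyte markers tested exceeded background clearly (the scanner software's well-above-background flag) in the Cy3 channel of every array. The flag was set for 79.6% to 94.2% of non-control features in Cy3, least often on 24 month replicate 2, and for 90.5% to 95.4% in Cy5. Fibroblast markers were present too: 11 of 15 tested had the flag in Cy3 on each of the 9 arrays, and of the 18 in the list only Twist2 had it on none. With 3 mice per age, p-values measure the spread between these mice.

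Decorin (Dcn), the proteoglycan that binds collagen fibres and transforming growth factor beta (TGF-beta), had the highest mean ratio among the tested probes of the 10 genes at each age. Its single probe (A_51_P334104) gave log2 ratios of 0.69, 0.84 and 0.72 on the 6 month arrays, 0.99, 2.10 and 1.77 on the 16 month arrays and 2.92, 0.89 and 1.15 on the 24 month arrays. All 9 older mice were above 1 month, and every 16 and 24 month array was above every 6 month array. The highest, 24 month replicate 1, had a Cy3 signal of 7995 in the older mouse against a Cy5 signal of 1054 for 1 month. Cy3 signals ran between 1567 and 7995 over the older mice, while the 1 month Cy5 signals of the same probe stayed between 844 and 1382.

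Against 1 month, Dcn averaged 0.75 ± 0.08 at 6 months, 1.62 ± 0.57 at 16 months and 1.66 ± 1.10 at 24 months on the log2 scale (SD, n = 3 each). It rose at 16 months (3.07-fold, 95% interval 1.71 to 5.48, limma adjusted p = 0.0219) and at 24 months (3.15-fold, interval 1.76 to 5.64, limma adjusted p = 0.0175). At 6 months the ratio was 1.68-fold with an interval of 0.939 to 3.00 and did not pass (limma adjusted p = 0.203). Leaving out 16 month replicate 2 or 3 ended the call at 16 months (limma adjusted p = 0.138 and 0.0900), and without 24 month replicate 1 the 24 month value was 1.02 on the log2 scale and stayed past the threshold. A fit restricted to 1 age at a time ended the 24 month call (limma adjusted p = 0.122) and passed the 6 month value (limma adjusted p = 0.0456), whereas with a haemoglobin covariate the 6 month value was 0.06 (limma adjusted p = 0.94).

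Matrix Gla protein (Mgp), an inhibitor of calcification in matrix, followed decorin. Its probe (A_51_P426270) gave log2 ratios of 0.24, 0.40 and 0.49 at 6 months, 0.54, 1.83 and 1.66 at 16 months and 1.95, 0.51 and 0.71 at 24 months. Again the 6 month arrays lay below all arrays of both later ages, and 16 month replicates 2 and 3 and 24 month replicate 1 stood above the rest. Mgp rose 2.53-fold at 16 months (interval 1.55 to 4.15, limma adjusted p = 0.0235) and 2.08-fold at 24 months (interval 1.27 to 3.40, limma adjusted p = 0.0415) against 1 month, and was 1.30-fold at 6 months (limma adjusted p = 0.436). The 16 month call was lost without replicate 2 or 3 of that age, and without 24 month replicate 1 the 24 month value was 0.61 on the log2 scale (limma adjusted p = 0.179). Across all arrays left out singly, its 24 month limma adjusted p lay between 0.0274 and 0.179. The 24 month call stayed only without 16 month replicate 1 (0.0274), and leaving out any other single array ended it. With only the ages compared in the fit neither call held (limma adjusted p = 0.0675 at 16 months and 0.141 at 24 months), and under normexp with loess the 24 month value was 0.72 (limma adjusted p = 0.0648).

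**Figure D1:**
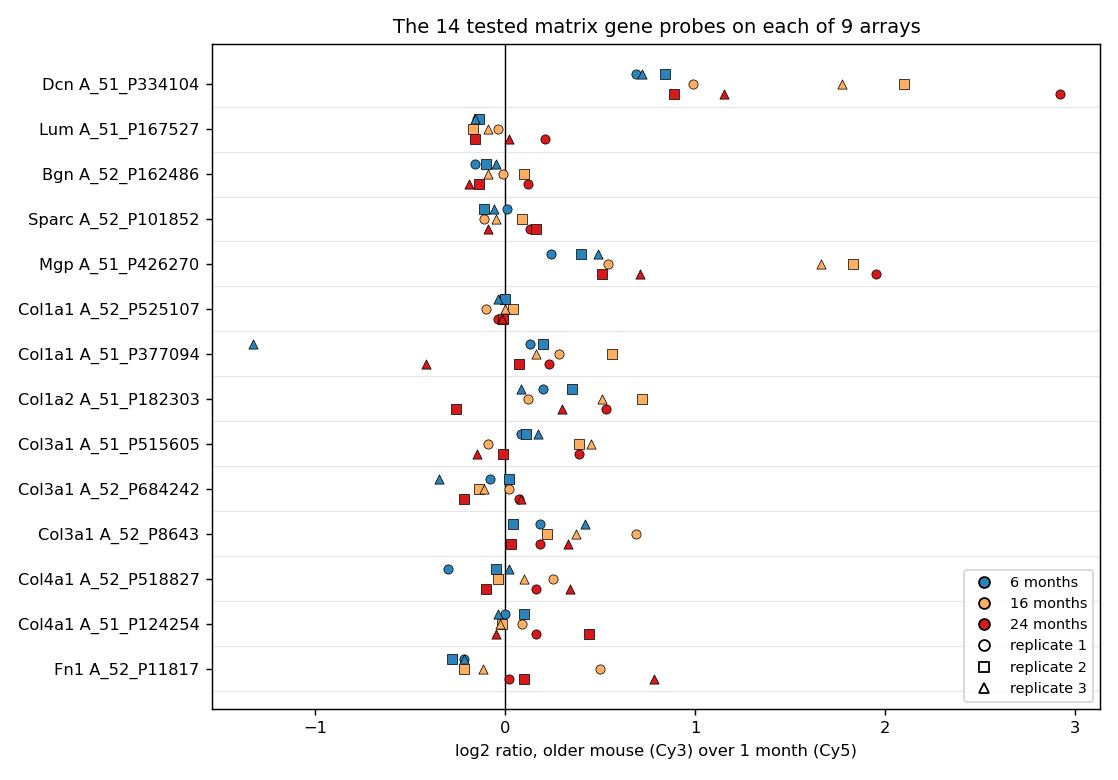
Log2 ratio of the older mouse (Cy3) over 1 month (Cy5) on each array for the 14 tested probes, coloured by age, with a marker shape per replicate. Dcn and Mgp lie right of 0 on all 9 arrays and reach 2.92 and 1.95 on 24 month replicate 1, whereas Lum, Bgn and the tested Sparc probe stay between -0.19 and 0.21.

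Osteonectin (Sparc) binds collagen and calcium, and its 2 probes disagreed. The bright probe (A_52_P101852) stayed between -0.11 and 0.16 on all 9 arrays, and its difference from 1 month at 24 months was 0.07 (interval -0.08 to 0.22). The dim probe (A_51_P431087), which did not pass the filter, had Cy3 signals of 274 and 149 on 16 month replicates 2 and 3 and 313 on 24 month replicate 1, the only arrays on which it was well above background. On the other 6 arrays its Cy3 signal lay between 44.9 and 61.8, and in Cy5 it was not well above background on any of the 9 arrays (29.9 to 52.4). Over all 3 mice, 16 months was 2.47-fold above a 1 month floor by this probe (well above background on 2 of 3 arrays). At 24 months the ratio was 1.90-fold (1 of 3). The floor is the lowest signal that counts as well above background, or the probe's own. Cy3 signals not well above background entered these means as measured, so the ratios are not lower bounds. They come without a test and are open to dye bias. The 3 arrays on which this probe was well above background are those on which Dcn and Mgp were highest.

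**Figure D2:**
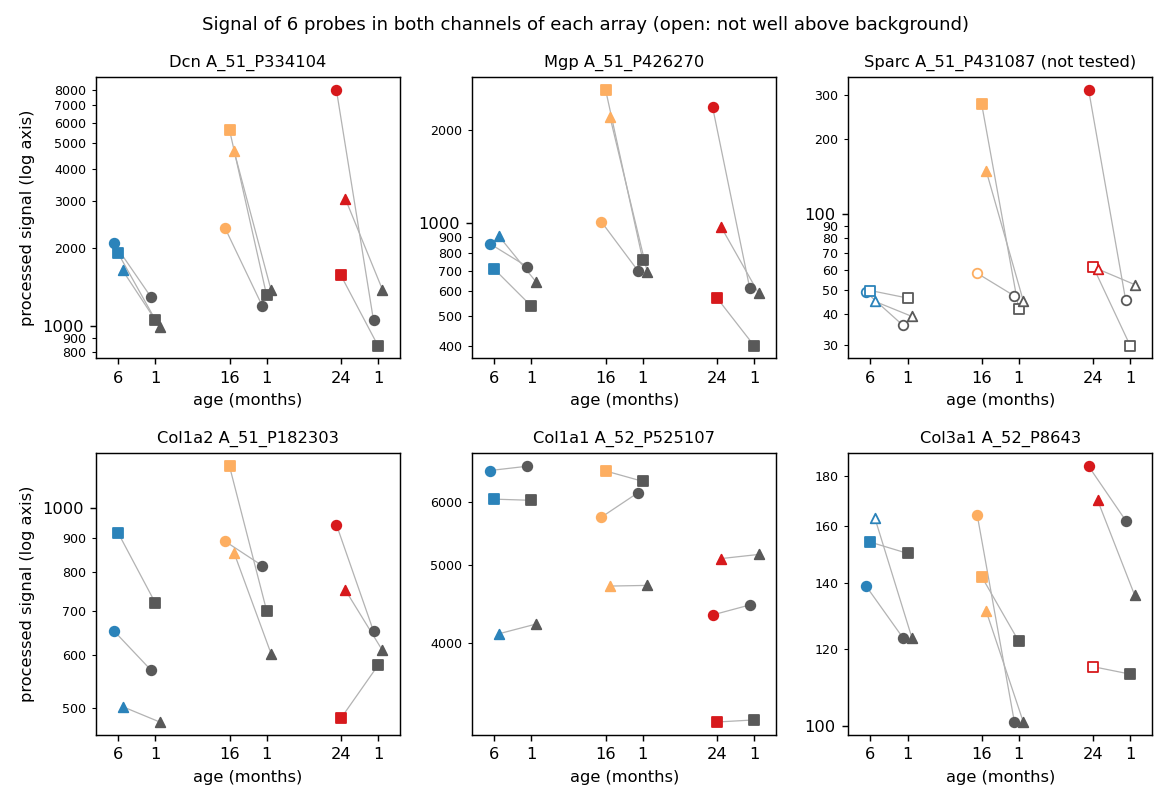
Processed signal (log axis) of 6 probes in the older mouse (Cy3, coloured by age, left of each pair) and in 1 month RNA (Cy5, grey, right), with a line per array, circles, squares and triangles for replicates 1, 2 and 3, and open symbols where the spot was not well above background. For Dcn, Mgp and the dim Sparc probe, 16 month replicates 2 and 3 and 24 month replicate 1 stand above the other arrays, and the 1 month signals of Dcn stay between 844 and 1382.

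Of the other proteoglycans of decorin's family, lumican and biglycan gave ratios close to those of 1 month. Lumican (Lum, A_51_P167527), which binds the same collagen fibres, ranged between -0.17 and 0.21 on the log2 scale over 9 arrays, and was 0.17 higher at 24 than at 6 months (interval -0.05 to 0.39). Biglycan (Bgn, A_52_P162486), the closest relative of decorin, ranged between -0.19 and 0.12, with a difference of 0.03 between 24 and 6 months (interval -0.19 to 0.26). Neither passed in any of the 6 comparisons. Their standard deviations over the 9 arrays, 0.12 and 0.11, placed them at percentiles 32.3 and 26.2 of all tested probes, while Dcn (0.77) and Mgp (0.68) lay at 98.6 and 97.7. Asporin (Aspn), also of this family and not among the 10 genes, had 2 probes that disagreed in sign: A_52_P723294 fell by 0.27, 0.26 and 0.27 at 6, 16 and 24 months (limma adjusted p = 0.0294, 0.0228 and 0.0175), and A_51_P142813 rose by 1.27, 1.11 and 1.32 (limma adjusted p = 0.0117, 0.0117 and 0.00625).

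The collagens of fibres gave mixed values. For Col1a2, the second chain of type I collagen, the tested probe (A_51_P182303) gave 0.20, 0.35 and 0.08 at 6 months, 0.12, 0.72 and 0.51 at 16 months and 0.53, -0.26 and 0.30 at 24 months. Its 3 highest arrays were again 16 month replicates 2 and 3 and 24 month replicate 1, but the ages overlapped. Its 16 month difference from 1 month was 1.37-fold (interval 1.06 to 1.76, limma adjusted p = 0.0864). The second Col1a2 probe (A_52_P424253) was not well above background in Cy3 on any array.

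For Col1a1, the first chain of type I collagen, the bright probe (A_52_P525107) lay between -0.10 and 0.04 on all 9 arrays, and its intervals against 1 month ran from -0.12 to 0.08 at each age. Its spread was at percentile 1.6 of all tested probes. The dim probe (A_51_P377094) ranged between -1.33 and 0.56, with its lowest value on 6 month replicate 3, where its Cy3 signal of 51.0 was not well above background.

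Type III collagen (Col3a1), found with type I in soft tissue, had 3 tested probes. The dimmest (A_52_P8643) gave 0.18, 0.04 and 0.42 at 6 months, 0.69, 0.22 and 0.37 at 16 months and 0.18, 0.03 and 0.33 at 24 months, positive on all 9 arrays, and rose 1.35-fold at 16 months against 1 month (interval 1.14 to 1.59, limma adjusted p = 0.0288). That call was lost on leaving out any 16 month array (limma adjusted p between 0.0636 and 0.124), and under normexp with loess the value was 0.11 (limma adjusted p = 0.103). The other probes differed from 1 month at that age by 0.25 (A_51_P515605, limma adjusted p = 0.195) and -0.08 (A_52_P684242, limma adjusted p = 0.563), so the 3 probes disagree. A_51_P515605 gave 0.08, 0.11 and 0.17 at 6 months and -0.09, 0.39 and 0.45 at 16 months. At 24 months it gave 0.39, -0.01 and -0.15, so its 3 highest arrays were those of decorin. With a haemoglobin covariate it passed at 16 months (0.39, limma adjusted p = 0.038), and A_52_P8643 did not (0.38, limma adjusted p = 0.0818).

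The promoters of Sparc, Col1a2 and Col3a1, printed because their probes had the highest values on the arrays where decorin was high or passed a test, are given as the 250 bases before the annotated start, from RefSeq on GRCm38.p6, read 5′ to 3′ on the gene's strand. RefSeq's promoter table held 5 of the 10 genes. Capitals mark matches, on either strand, to CCAAT, to GGGCGG (the GC box), to TATAAA and to CAGAC (a Smad-binding motif), whose matches do not overlap here. Sparc lies on the minus strand at chr11:55420081-55420330, Col1a2 on the plus strand at chr6:4505368-4505617, and Col3a1 on the plus strand at chr1:45311288-45311537.
Sparc: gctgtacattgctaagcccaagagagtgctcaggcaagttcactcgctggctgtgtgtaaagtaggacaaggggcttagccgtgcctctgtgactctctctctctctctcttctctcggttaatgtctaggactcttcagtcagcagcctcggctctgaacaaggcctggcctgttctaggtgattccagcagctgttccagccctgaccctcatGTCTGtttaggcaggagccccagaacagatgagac
Col1a2: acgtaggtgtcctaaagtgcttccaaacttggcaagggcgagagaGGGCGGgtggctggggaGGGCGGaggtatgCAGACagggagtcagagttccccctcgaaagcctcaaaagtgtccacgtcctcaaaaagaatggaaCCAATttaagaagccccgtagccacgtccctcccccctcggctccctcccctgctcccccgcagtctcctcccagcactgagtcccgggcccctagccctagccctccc
Col3a1: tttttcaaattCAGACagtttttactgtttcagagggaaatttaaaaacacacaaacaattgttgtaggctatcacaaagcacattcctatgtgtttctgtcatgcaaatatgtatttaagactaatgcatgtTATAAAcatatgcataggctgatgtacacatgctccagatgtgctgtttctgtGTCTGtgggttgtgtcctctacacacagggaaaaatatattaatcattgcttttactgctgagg

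In the Col1a2 promoter, CCAAT begins 109 bases before the start, GGGCGG 205 and 188 bases before it, and CAGAC 175 bases before it. Sparc holds a CAGAC on the opposite strand 35 bases before the start and none of the other 3 motifs. Col3a1 has TATAAA 117 bases before its start and CAGAC on both strands. Of 32851 promoters cut to the same length, 33.8% hold CCAAT, 32.7% GGGCGG, 12.4% TATAAA and 42.2% CAGAC on either strand, so each of these is common. A match is a description of letters and not a bound site.

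Type IV collagen (Col4a1), of the basement membrane, stayed within -0.30 to 0.34 on 1 probe (A_52_P518827) and -0.05 to 0.44 on the other (A_51_P124254), and neither passed in any comparison. Fibronectin (Fn1), which joins matrix to integrins, had 1 tested probe (A_52_P11817) with log2 ratios of -0.22, -0.28 and -0.22 at 6 months, 0.50, -0.22 and -0.12 at 16 months and 0.02, 0.10 and 0.78 at 24 months. All 6 month arrays were below 1 month and all 24 month arrays above it. Its highest arrays, 24 month replicate 3 and 16 month replicate 1, were not those of decorin. The 24 to 6 month difference was 0.54 (interval -0.02 to 1.10, limma adjusted p = 0.558). The other Fn1 probes were not tested.

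Between ages, no matrix gene passed. At 24 against 6 months 0 of 14 probes passed, against a background of 0% of 37448 probes (0 at a limma adjusted p under 0.05). At an unadjusted p under 0.05 the counts were 0 of 14 and 9.11% of all probes (3412), and every other way of processing listed below also called 0, except that 1 probe, not of a matrix gene, passed without 24 month replicate 1. At 16 against 6 months and at 24 against 16 months 0 of 14 passed too, against 0% of all probes, with 0 of 14 against 6.38% and 4.77% at an unadjusted p under 0.05. The 24 month arrays lay wholly above the 6 month arrays for 3 of 14 probes (21.4%), those of Dcn, Mgp and Fn1, against 5.91% of all probes. The 16 month arrays lay wholly above the 6 month arrays for Dcn and Mgp, 2 of 14 (14.3%), against 7.27%. At 24 against 16 months this held for 0 of 14, against 4.35%.

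For Dcn the difference was 0.91 at 24 against 6 months (1.88-fold, interval 0.825 to 4.27, limma adjusted p = 0.623), 0.87 at 16 against 6 months (1.83-fold, interval 0.802 to 4.15, limma adjusted p = 0.784) and 0.04 at 24 against 16 months (interval -1.15 to 1.23, limma adjusted p = 0.988). For Mgp they were 0.68 (interval -0.33 to 1.68, limma adjusted p = 0.657), 0.96 (interval -0.04 to 1.97, limma adjusted p = 0.769) and -0.29 (interval -1.29 to 0.72, limma adjusted p = 0.901) in the same order. The intervals are wide enough to hold both no change and a rise of 3-fold for each gene from 6 months onwards. Without 24 month replicate 1, the 24 to 6 month difference of Dcn was 0.27 and that of Mgp 0.23. With a haemoglobin covariate, Dcn differed by 1.61 and 1.92 and Mgp by 1.27 and 1.85 at 24 and 16 months against 6 months, still without a call.

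**Figure D3:**
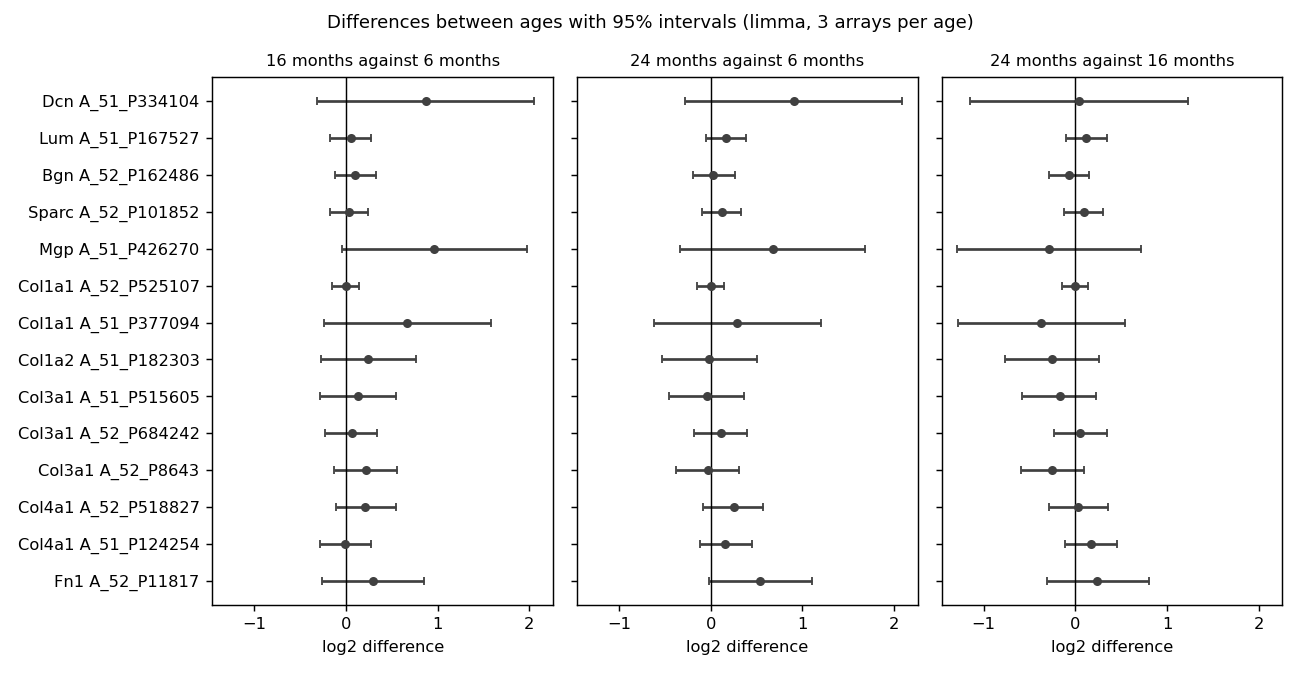
Differences in log2 ratio between ages for the 14 tested probes, with 95% intervals from limma on 3 arrays per age, the later age minus the earlier. Dcn and Mgp have the widest intervals with the Col1a1 A_51_P377094 probe, and every interval includes 0.

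Against 1 month, 3 of 14 matrix probes rose at 16 months (21.4%), against a background of 11.4% of all probes called higher, and 0 fell, against 6.59% called lower. At 24 months 2 of 14 rose (14.3%), against 11.6%, and 0 fell, against 13.3%. At 6 months 0 of 14 rose, against 7.61%, and 0 fell, against 4.76%; at an unadjusted p under 0.05 the share was 0 of 14 against 31.1% of all probes. These shares rest on 3 and 2 probes and lie near the background, so the counts are not a result about the genes as a set. Of the 4 tested probes whose array gene name is a member's symbol, 1, that of Dcn, rose at 16 and at 24 months. The median over the 14 probes was -0.04, 0.08 and 0.11 at 6, 16 and 24 months against 1 month, beside -0.01, -0.01 and -0.02 over all tested probes.

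The genes whose 9 log ratios were most like those of Dcn, among 15079 genes with 1 probe each and a value on every array, were Aqp1 (Pearson r = 0.969), Tmem176b (0.954), Clu (0.952), Mgp (0.950), Gas6 (0.942), Cd34 (0.940), Ckb (0.936) and Cd248 (0.935). Aqp1 is a water channel, Clu the secreted chaperone clusterin, Gas6 a ligand of TAM receptor kinases, Cd34 a sialomucin of endothelial, haematopoietic progenitor and stromal cells, Ckb a creatine kinase and Cd248 (endosialin) a surface protein of fibroblasts and pericytes. Aqp1 gave 0.31, 0.99 and 0.75 at 16 months and 2.04, 0.06 and 0.26 at 24 months. All 8 had their highest value on 24 month replicate 1, followed by 16 month replicate 2. Dcn itself is highest on these arrays, so choosing genes by correlation with it favours this order. If the 1 month RNA was a pool, all 9 arrays share it. Of the genes, 0.882% had r over 0.8. The values of r for the other members ran from -0.09 (Col3a1 A_52_P8643) to 0.76 (Bgn) over the tested probes.

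**Figure D4:**
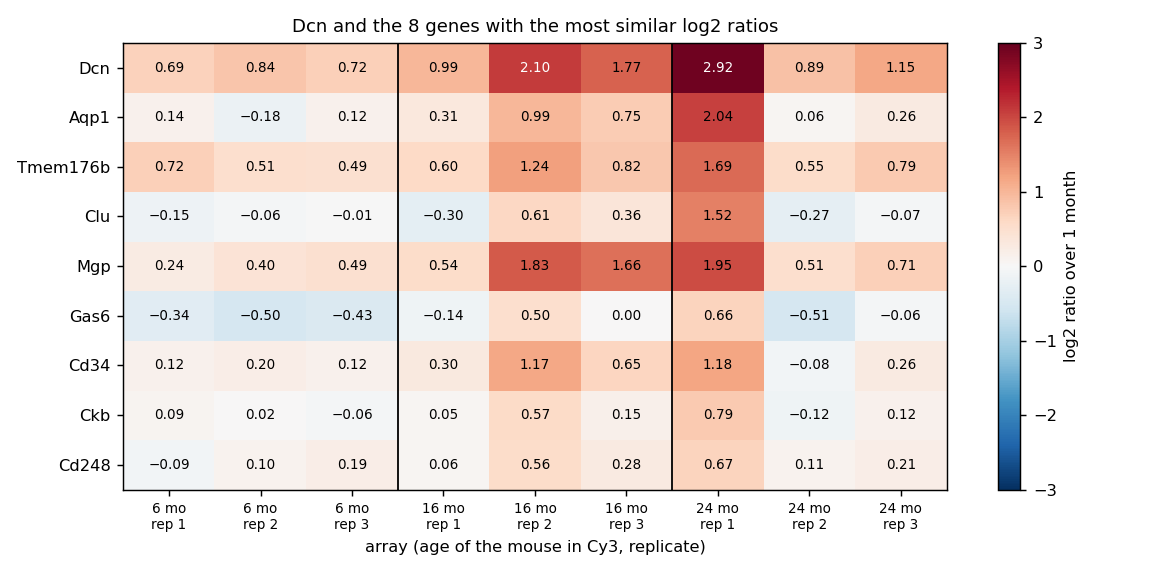
Log2 ratio over 1 month on each of 9 arrays (columns, by age and replicate) for Dcn and the 8 genes with the highest Pearson correlation with it, in order of that correlation. In all 9 rows 24 month replicate 1 is the highest and 16 month replicate 2 the second highest, an order that the choice by correlation favours.

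Among 41 other structural matrix genes, 1 rose and 3 fell at 6 months against 1 month. At 16 months 2 rose and 4 fell, and at 24 months 3 rose and 5 fell. Over all tested probes, 7.61%, 11.4% and 11.6% rose and 4.76%, 6.59% and 13.3% fell at these ages. The counts of this and each later list are to be read beside these shares. Each gene is counted by 1 probe, and Aspn is among those that fell although its other probe rose. Efemp1 (fibulin 3), a glycoprotein of elastic and basement membrane matrix, rose by the most: it gave 1.02, 2.55 and 2.31 on the 16 month arrays, a mean of 1.96 (SE 0.31, limma adjusted p = 0.00663), and its 6 month arrays were between 0.05 and 0.49. Ecm1, a matrix glycoprotein, was above 1 month on all 9 arrays, by 0.43, 0.82 and 0.77 at 6, 16 and 24 months (limma adjusted p = 0.0429, 0.00449 and 0.00503). Nid2, a linker of laminin and type IV collagen, rose by 1.17 at 24 months (limma adjusted p = 0.0268), and Lamb2, a laminin chain, fell by 0.63 (limma adjusted p = 0.0396), with its lowest value of -1.26 on replicate 2. Ecm1 at 16 and 24 months stayed past the threshold without any single array. The Efemp1 call was lost without 16 month replicate 2 (1.67, limma adjusted p = 0.0545), and without 24 month replicate 2 Lamb2 was at -0.31 and Nid2 at 0.90 (limma adjusted p = 0.1 and 0.129). At 6 months Ecm1 did not pass without replicate 2 or 3 of that age. The list median stayed between -0.05 and 0.01 at the 3 ages against 1 month.

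Among 23 genes of matrix synthesis, crosslinking and turnover, 0 rose and 3 fell at 6 months, 2 rose and 0 fell at 16 months and 4 rose and 1 fell at 24 months against 1 month. Serpinh1, the collagen chaperone Hsp47, gave 0.63, 1.63 and 1.32 at 16 months and 1.60, 0.24 and 0.22 at 24 months, and its 3 highest arrays were those of decorin. It rose by 1.19 at 16 months (SE 0.28, limma adjusted p = 0.0246). P4hb, the beta subunit of collagen prolyl hydroxylase and a disulphide isomerase of all secretory cells, rose by 0.50 at 16 months (limma adjusted p = 0.0124) and 0.44 at 24 months (limma adjusted p = 0.0168). At 6 months Lox, the lysyl oxidase that crosslinks collagen, fell by 0.33 and Pcolce, an enhancer of procollagen processing, by 0.26 (limma adjusted p = 0.0454 and 0.0340). Each of these calls was lost on leaving out at least 1 array. The highest limma adjusted p was 0.152 for Serpinh1, 0.178 for Lox and 0.171 for Pcolce. It was 0.0779 and 0.069 for P4hb at 16 and 24 months. Adamts5, counted as risen at 24 months (0.50), had a second probe that fell by 0.60 (limma adjusted p = 0.0263). Mmp9, also counted as risen then (0.31), had a second probe at -0.04.

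Among 27 matrix receptors and TGF-beta pathway genes, 1 rose and 2 fell at 6 months, 3 rose and 1 fell at 16 months and 2 rose and 4 fell at 24 months. Tgfb1, the ligand, rose by 0.71 at 16 months and 0.63 at 24 months (limma adjusted p = 0.0402 and 0.0461). Its type I receptor Tgfbr1 fell by 0.29, 0.44 and 0.51 at 6, 16 and 24 months (limma adjusted p = 0.0147, 0.00265 and 0.00212), and Smad7, an inhibitor of the pathway, fell by 1.06 at 6 months (limma adjusted p = 0.00968) and 0.88 at 24 months (limma adjusted p = 0.00939). Itgb1, the integrin beta chain shared by fibronectin and collagen receptors, rose by 0.52, 0.57 and 0.38 at the 3 ages (limma adjusted p = 0.0170, 0.00806 and 0.0412), the last on 2 arrays, since the spot of replicate 3 was left out. Without 24 month replicate 1 that value was 0.26 (limma adjusted p = 0.269). The falls of Tgfbr1 at 16 and 24 months and of Smad7 at 24 months stayed past the threshold without any single array. The second Tgfbr1 probe (A_51_P280137) gave -0.05, -0.52 and -0.23 at 6, 16 and 24 months. It passed at no age (limma adjusted p = 0.913, 0.2 and 0.54). The other calls named here were lost without at least 1 array, with a limma adjusted p of up to 0.202 and 0.166 for Tgfb1 at 16 and 24 months. T cells and many other cells also express these receptors. Smad3, counted as risen at 16 months (0.27), had a second probe that fell by 0.38 (limma adjusted p = 0.0152). The second Itgb1 probe gave 0.55, 0.51 and 0.28 at 6, 16 and 24 months and passed at no age. Between the older ages 0 genes of these 3 lists passed.

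Some markers of other cells were higher on some of the arrays where decorin was high. The mean log2 ratio of 15 fibroblast markers was 0.27 and 0.14 on 16 month replicates 2 and 3 and 0.24 on 24 month replicate 1, the arrays with the most decorin, and between -0.03 and 0.12 on the other 6. Their summed Cy3 signal ran between 35593 and 46363 at 6 months, 36409 and 49861 at 16 months and 29391 and 51117 at 24 months, beside a Cy5 sum of 23974 to 45319 for 1 month. Against 1 month, 3 fibroblast markers rose and 1 fell at 16 months: Igfbp6 rose by 1.08, led by 2.05 on replicate 2, Igfbp4 by 0.85 and Clec3b by 0.43, while Cxcl12 fell by 0.34. Without 16 month replicate 2, Igfbp6 was at 0.59 (limma adjusted p = 0.186), and each of the other 3 calls was also lost without at least 1 array. At 6 and at 24 months 2 markers rose and 1 fell. At 6 months Igfbp4 rose by 1.11 and Clec3b by 0.48 (limma adjusted p = 0.0173 and 0.0218), and Cxcl12 fell by 0.31. Igfbp4 was highest on 6 month replicate 3 (1.66), where decorin was low. At 24 months Clec3b rose by 0.52 and Gsn by 0.36. Each of these calls was also lost without at least 1 array. The fall at 24 months was that of Pdpn, on both its probes (-0.25 and -0.48, limma adjusted p = 0.0124 and 0.025). The median of the fibroblast list against 1 month was -0.06, 0.0 and -0.02 at 6, 16 and 24 months. The part of fibroblasts in the decorin values was not tested.

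Macrophage markers averaged 0.75 on 24 month replicate 1 and 0.42, 0.47 and 0.20 on the 16 month arrays, and between -0.13 and 0.30 elsewhere. Of 11, 3 rose at 16 months, Lyz1 by 1.29, Lyz2 by 0.99 and Fcgr1 by 0.51, and their summed signal ran between 27744 and 31372 at 6 months, 50324 and 87393 at 16 months and 24805 and 82584 at 24 months, against 24012 to 39860 at 1 month. Lyz1 and Lyz2 are near-identical copies, so their probes may share signal. Without 16 month replicate 2 they were at 0.95 and 0.71 and did not pass (limma adjusted p = 0.082 and 0.243), and Fcgr1 did not pass without 16 month replicate 1 (limma adjusted p = 0.13). Thymic epithelial markers were below 1 month on every array but 24 month replicate 1 (0.01), and 6 of 11 fell at 6 months, 3 at 16 months and 2 at 24 months. Ccl25 was at -2.43, -2.20 and -1.81, past the threshold without any single array. The second Ccl25 probe fell by less, by 0.96, 0.94 and 0.58 (limma adjusted p = 0.0182, 0.0128 and 0.0494). Prss16, counted as fallen at each age, had a second probe at -0.07, -0.18 and -0.23 that passed at no age. Trp63, counted as fallen at 6 months, had a second probe at -0.02 then (limma adjusted p = 0.906). Of this list only Psmb11 exceeded background clearly in Cy3 on no array. The summed signal ran between 13379 and 15537 at 6 months, 15245 and 16674 at 16 months and 11460 and 23055 at 24 months, against 17356 to 27368 at 1 month. Adipocyte markers averaged 0.40 on 24 month replicate 1, and 2 of 9 rose at 24 months, Adipoq by 0.43 and Lep by 0.21. Both calls were lost without 24 month replicate 2 (limma adjusted p = 0.146 and 0.0929). The summed signal of the adipocyte list ran between 8213 and 15018 at 24 months, against 8094 to 12209 at 1 month. The part of these cells in the matrix values was not tested.

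Endothelial markers averaged 0.21 and 0.35 on 24 month replicates 1 and 2, and of 12, 1 rose at 16 months (Pecam1, 0.68) and 2 at 24 months (Esam, 0.95, and Cdh5, 0.47). Without 24 month replicate 2, Esam was at 0.67 and Cdh5 at 0.25 (limma adjusted p = 0.0938 and 0.178), and Pecam1 did not pass without 16 month replicate 1 (limma adjusted p = 0.0537). The second Cdh5 probe gave 0.14 at 24 months and did not pass (limma adjusted p = 0.419). Of 9 pericyte and smooth muscle markers 1 fell, Des, at 24 months, where it was not well above background on any array, so that 1 month was at least 1.71-fold higher (limma adjusted p = 0.0342, and 0.12 without 24 month replicate 1). Of 5 erythroid markers 0 passed in any comparison. The mean ratio of the haemoglobin probes was -1.74, -1.71 and -1.09 on the 6 month arrays. It was 1.80, 1.28 and -0.63 on the 16 month arrays and -1.63, 0.42 and 1.35 on the 24 month arrays. The 6 month arrays, the lowest for decorin, were thus below 1 month, as were 16 month replicate 3 and 24 month replicate 1. The part of blood cells in the decorin values was not tested. Of 13 thymocyte markers, 2 rose and 1 fell at 6 months, 4 rose and 1 fell at 16 months and 4 rose and 2 fell at 24 months. Cd8b1 and Dntt among them were saturated in at least 1 channel on all 9 arrays and are given no fold. Cd3g rose by 0.39, 0.52 and 0.42 at the 3 ages, and Cd8a fell by 0.36, 0.45 and 0.45 (limma adjusted p = 0.0204, 0.00694 and 0.00648). Of these 6 calls, Cd8a at 24 months stayed past the threshold without any single array.

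**Figure D5:**
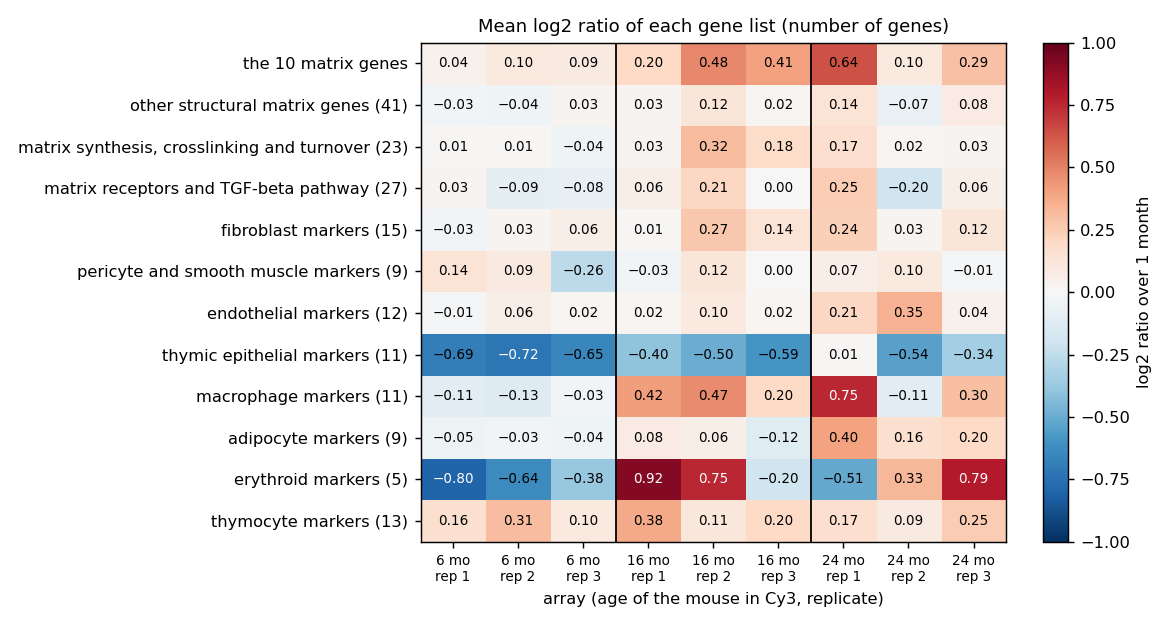
Mean log2 ratio over 1 month of each gene list on each of 9 arrays, 1 probe per gene, with the number of genes tested in brackets. The 10 matrix genes are highest on 24 month replicate 1 (0.64) and 16 month replicates 2 (0.48) and 3 (0.41), and the thymic epithelial markers are below 0 on all arrays but 24 month replicate 1.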

How the data were processed

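Thymocyte RNA of 18 samples, the 2 channels of 9 arrays, was analysed; the file of the 2 samples was identical for each of the 9 arrays. Intensities, deposited by the authors, are Agilent Feature Extraction output (version 7.5.1 per the file headers, 7.1 per the submitters' processing notes): processed signals, background-subtracted and dye-normalized by LOWESS (smooth factor 0.25), per the file headers. A further table deposited by the authors gives each channel a score, checked to be the z-score of log10 processed signal within the channel (column medians -0.054 to 0.011). The genome build is not given in the sources used here.

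Log2 ratios of Cy3 to Cy5 processed signal were computed, outlier-flagged spots were left out and replicate spots averaged. Of 41174 probes, 37448 were tested: those flagged as well above background in all 3 Cy3 channels of an age, or in all 9 Cy5 channels. Symbols came from accessions (18479 probes), gene names (1506), synonyms (932) and, for matrix genes, descriptions (6). limma 3.58.1 in R 4.3.3 fitted 1 mean per age over all 9 arrays (prior degrees of freedom 1.94, residual 6), and two-sided p-values were adjusted by Benjamini-Hochberg over all tested probes, with a threshold of 0.05; intervals are 95%. Bounds and ratios to a floor for probes not above background used channels after A-quantile normalization. The fit was tested on simulated data. Lists used 1 probe per gene, that of the highest mean signal; named were every member, up to 4 called genes of a list per comparison and the 8 genes most like Dcn. The members and lists were chosen with earlier results of these data known. Python 3.11.15, numpy 2.4.6, pandas 2.3.3 and matplotlib 3.10.9 made tables and figures. Alternatives were normexp with loess, median centring, no filter, flagged spots kept, the authors' scores, a replicate block, only the ages compared, a haemoglobin covariate and each array left out. The number of arrays limits the precision.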

Additional observations from a re-analysis of the deposited data

Results flagged for a closer look

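The dim Sparc probe A_51_P431087, not tested, reached a Cy3 signal of 313 on 24 month replicate 1, above the highest of its 9 Cy5 signals for 1 month (52.4). The Fn1 probe A_51_P100856, not tested either, reached 157 in Cy3 on 16 month replicate 2, above its highest 1 month signal of 66.7, and was well above background in Cy3 on no other array. For the tested Fn1 probe A_52_P11817, all 3 arrays of 24 months were above 1 month and all 3 of 6 months below it, a difference of 0.54 (limma adjusted p = 0.558). No probe of the 10 genes had 1 of its 9 Cy5 signals far enough from the others to stand out.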

How the results depend on the processing

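Normexp with loess, median centring, no filter, flagged spots kept and the authors' scores called 3 matrix probes at 16 months against 1 month and 0 at 6 months and between ages, and moved no count of all probes by over 1.5 times. Under normexp with loess the third probe at 16 months was Col1a1 A_51_P377094 (0.20, limma adjusted p = 0.0366) in place of Col3a1 A_52_P8643; at 24 months it called Dcn alone, and median centring added Col3a1 A_52_P8643 (0.58, limma adjusted p = 0.0197). The replicate block called 1 matrix probe at 16 months (Col3a1 A_52_P8643, limma adjusted p = 0.0294) and 1 at 24 months (Dcn, 0.0418), in place of 3 and 2, with Dcn and Mgp at 0.0542 and 0.0605 at 16 months and Mgp at 0.0863 at 24 months, and 2427 of all probes at 6 months, in place of 4632; it changed 0 calls between ages. Same-numbered mice of different ages share only a number: their deviations correlated between -0.31 and 0.10, and not every mouse correlated best with its own number. With only the ages compared in the fit, 1, 1 and 0 matrix probes passed at 6, 16 and 24 months, and 1132, 3534 and 0 of all probes. The haemoglobin covariate called 139 probes at 6 months, made Dcn at 24 against 16 months -0.31 and Mgp at 6 months -0.19, and normexp with loess made that Dcn difference -0.01. Median centring made Lck at 24 months -0.01. Of 73 calls named from the other lists, 58 were lost without at least 1 array and 15 stayed. Leaving out 1 array at a time, matrix probes called ranged between 0 and 4 at 16 months and 1 and 2 at 24 months; 0 passed without 16 month replicate 2 or 3. All probes called ranged between 290 and 5406 at 6 months, 1240 and 7728 at 16 months, 3505 and 8712 at 24 months, and 0 and 1 in each comparison between ages. Dcn at 24 against 16 months ranged between -0.59 and 0.42 (-0.28 without 16 month replicate 1, -0.59 without 24 month replicate 1). The causes were not tested. Of calls higher and lower, the split was 2851 and 1781 at 6 months, 4277 and 2469 at 16 months and 4357 and 4978 at 24 months; with the authors' scores it was 2475 and 2788, 3476 and 4132, and 4152 and 6317, and with normexp and loess 4851 and 4280 at 16 months. The scan date as a block was not run because the files give 1 extraction day and no scan date. Dim probes (Sparc A_51_P431087, both untested Fn1 probes) are limited by signal over background.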
